A study of Sus scrofa with 90 samples.

Results

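Desmin (DES), myozenin 1 (MYOZ1), the LIM-only proteins FHL1 and FHL3 and the small muscle protein SMPX were followed in muscle lesions of piglets made by injecting propylene glycol, a solvent in which some injected drugs are dissolved. The members were all array features listed under these 5 gene symbols alone. There were 19 such features, of which 10 had a value on every array, out of 1908 features with values in the whole series. They were 3 features of DES, 1 of FHL1, 1 of FHL3, 2 of SMPX and 3 of MYOZ1. The other 9 (3 of FHL1, 2 of SMPX and 4 of MYOZ1) were listed with no value and were not analysed here. Each feature is called by its gene and its number in the deposited table. The main fit applied no filter on level, so every member with values was tested. Whether the authors had already removed features by their level is unknown.

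Each of 10 piglets (pigs C to L) received propylene glycol in the Longissimus dorsi, a back muscle, at staggered times. The injected sites gave lesions of 6 h, 2 d, 7 d and 21 d, and a site of the same muscle that was not injected was the control. Controls therefore came from animals that also carried lesions. The fit held 9 lesions of 6 h, 10 of 2 d, 9 of 7 d, 9 of 21 d and 10 controls, each 1 piece of muscle on 1 nylon cDNA array. No 7 d lesion of pig J and no 21 d lesion of pig L was analysed here. The sources used here do not give the breed or age of the piglets. The sites were whole pieces of tissue, so fewer muscle fibres and less RNA per fibre cannot be told apart.

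The Z disc is the plate of protein at each end of the sarcomere, where the actin filaments of neighbouring sarcomeres are anchored. Desmin forms the intermediate filaments of muscle, which tie the Z discs of neighbouring myofibrils to one another and to the cell membrane. Myozenin 1 lies in the Z disc of fast fibres, where it binds alpha-actinin and the phosphatase calcineurin. FHL1 and FHL3 are built of LIM domains, which bind other proteins; FHL3 binds actin and, in mouse myoblasts, holds back the muscle regulator MyoD. SMPX lies at the costamere, the link between the outer myofibrils and the membrane. Desmin is widely used as a stain for muscle fibres, and its loss from fibres is a known early sign of fibre damage in several mammals.

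The values were logarithms of unstated base, so differences are given in log units and not as folds. How they were centred is not stated either, so a level of 0 or below does not mean that the gene was silent. The SD of all values on an array averaged 0.744 ± 0.0926 in 6 h lesions, 0.805 ± 0.0985 in 2 d lesions, 0.607 ± 0.158 in 7 d lesions and 0.643 ± 0.196 in 21 d lesions, against 0.976 ± 0.237 in controls (SD, n as above). The arrays were therefore quantile-normalized before the test. The 6 h array of pig F was left out, because its values fitted the feature list only after a shift: their r with the mean of the other arrays was 0.739 once moved by 384 features, and 0.240 unmoved. Of the columns listed for the 6 h lesion of pig J, 1 copied the control of pig I and was left out.

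No member passed the test at any lesion age against control, where the 4 comparisons share the same control samples. By limma with the animal as a block, at an adjusted p below 0.05, 0 of the 10 features were called at 6 h, where 11.8% of all features were. At 2 d 0 of 10 were called and 0.734% of all features. At 7 d 0 of 10 were called, against 25.4% of all features, and at 21 d 0 of 10, against 14.7%. At an unadjusted p below 0.05 the members numbered 3 at 6 h, 0 at 2 d, 2 in 7 d lesions and 1 in 21 d lesions.

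The members also had no common direction. Differences from control were above 0 in 5 of 10 features at 6 h, 4 at 2 d, 5 in 7 d lesions and 6 in 21 d lesions. Their medians were 0.00 at 6 h, -0.02 at 2 d, 0.01 in 7 d lesions and 0.02 in 21 d lesions, beside medians over all features of -0.02, -0.02, -0.01 and 0.00. In a single test over all 4 ages (a moderated F test), 1 of 10 members was called, MYOZ1 7646, where 22.6% of all features were. The missing calls do not show equal levels: the 95% intervals of the differences from control reached between 0.118 and 0.486 log units to each side.

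**Figure D1:**
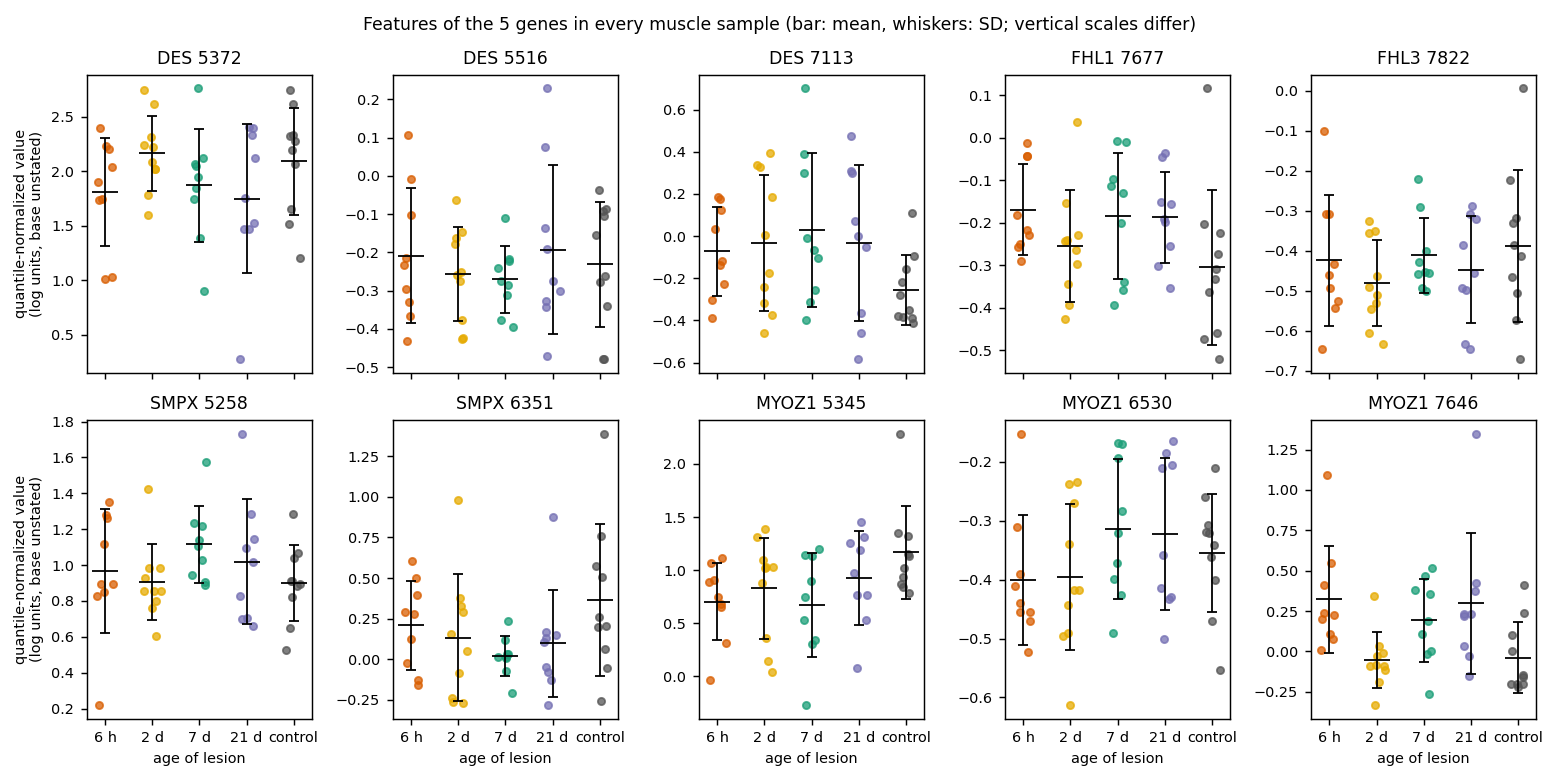
Normalized level (log units) of each of the 10 member features in every muscle sample, with points for animals, bars for group means and whiskers for the SD, in lesions of each age and in controls. The lesion groups overlap the controls for every feature, as for MYOZ1 7646 with 0.01 to 1.09 at 6 h and -0.22 to 0.41 in controls.

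Desmin was measured by 3 features that did not move together. DES 5372 averaged 2.16 ± 0.347 at 2 d, where it was highest, against 2.09 ± 0.491 in controls (SD, n = 10 each). Its lowest, median and highest values were 1.01, 1.90 and 2.39 in 6 h lesions, 1.59, 2.15 and 2.74 in 2 d lesions, 0.90, 1.94 and 2.76 in 7 d lesions, and 0.27, 1.75 and 2.40 in 21 d lesions, against 1.20, 2.23 and 2.74 in controls. Every group spanned more than a log unit and overlapped the controls through most of their range. Its difference from control was -0.24 at 6 h and -0.24 at 7 d, with a standard error (SE) of 0.240 at both ages and limma adjusted p of 0.591 and 0.506. At 2 d the difference was 0.07 (SE 0.232, adjusted p = 0.904), and at 21 d it was -0.35 (SE 0.240, adjusted p = 0.365), lower in 6 of 9 animals. Single animals moved these values: the 6 h difference was -0.07 without pig G, -0.06 without pig H and -0.41 without pig K, the 7 d difference was -0.10 without pig I, -0.11 without pig H and -0.37 without pig K, and the 21 d difference was -0.14 without pig J. At 2 d its sign turned without pig K (-0.03) and on the deposited values (-0.40).

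DES 7113 lay above control at each age in this fit, with no age called. It averaged -0.07 ± 0.212 at 6 h, -0.03 ± 0.323 at 2 d, 0.03 ± 0.365 in 7 d lesions and -0.03 ± 0.370 in 21 d lesions, against -0.26 ± 0.168 in controls (SD, n = 9, 10, 9, 9 and 10). The differences were 0.18, 0.22, 0.28 and 0.23, with limma adjusted p of 0.469, 0.623, 0.162 and 0.317. At 7 d the feature was higher than control in 7 of 9 animals, with a 95% interval from -0.01 to 0.57. With the array SD in the model the direction turned, with differences of -0.08 at 6 h, -0.10 at 7 d and -0.14 at 21 d, and 0.04 at 2 d. The array SD itself averaged lower in lesions than in controls, so lesion and array SD cannot be fully told apart in such a fit. DES 5516 stayed within 0.04 log units of control at each of the 4 ages, with an SE of at most 0.0754. At 7 d DES 5372 was lower and DES 7113 higher in 3 of 9 animals, the reverse held in 0, and both lay on the same side of control in 5.

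MYOZ1 7646 was the member that passed the test over lesion ages. Its lowest, median and highest values were 0.01, 0.23 and 1.09 in 6 h lesions, -0.33, -0.09 and 0.35 in 2 d lesions, -0.27, 0.19 and 0.51 in 7 d lesions and -0.15, 0.23 and 1.35 in 21 d lesions, against -0.22, -0.15 and 0.41 in controls. Levels were high at 6 h, low at 2 d and high again at 21 d, and each group overlapped the controls. The F test over the ages gave F = 3.88 and a limma adjusted p of 0.0443.

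Its difference from control was 0.37 at 6 h (SE 0.134, 95% interval 0.10 to 0.64), higher in 8 of 9 animals, with a limma adjusted p of 0.0643. At 21 d it was 0.35 (SE 0.134, adjusted p = 0.0717), also higher in 8 of 9 animals. At 7 d it was 0.21 (SE 0.134, adjusted p = 0.282) and at 2 d -0.02 (SE 0.130, adjusted p = 0.963). The call of the F test was lost without pig C, F, G, H, J, K or L, with adjusted p up to 0.114, with the array SD in the model (adjusted p = 0.277), with a local trend along the feature list subtracted (0.0759), and without the control of pig I and the 6 h lesion of pig J (0.110). The level in 1 animal stood apart at both high ages: pig G at 6 h with 1.09, where the next was 0.55, and pig I at 21 d with 1.35, where the next was 0.43. Without pig G the 6 h difference was 0.26, and without pig I the 21 d difference was 0.20. With the array SD in the model the differences were 0.21 at 6 h, -0.13 at 2 d, -0.03 in 7 d lesions and 0.12 in 21 d lesions.

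A feature next to it on the list of the array, XIRP2 7647, also had its low level among lesions at 2 d. XIRP2 encodes a Xin repeat protein that binds actin. Its difference from control was 1.21 at 6 h, 0.08 at 2 d, 2.08 in 7 d lesions and 2.22 in 21 d lesions, called by limma at 6 h, 7 d and 21 d (adjusted p = 3.22e-10, 2.29e-17 and 1.60e-18). MYOZ1 7646 and XIRP2 7647 were correlated within groups at r = 0.159 at 6 h, 0.683 at 2 d, 0.693 at 7 d, 0.569 at 21 d and 0.556 in controls (n = 9 or 10, a description with no test). Rank correlations were 0.250, 0.0909, 0.686, 0.667 and 0.539. Leaving out the 2 samples farthest from the median of XIRP2 gave r of -0.180, 0.0328, 0.520, 0.621 and 0.349, so the 2 d value rested on those samples. Over all 47 arrays with group means subtracted, MYOZ1 7646 had r = 0.520 with XIRP2 7647 and 0.516 with feature 7645, its other neighbour. Such r was not particular to MYOZ1 7646. It was 0.822 for DES 7113 with feature 7114 and 0.477 for DES 5516 with feature 5515, neither neighbour having a symbol. For the remaining list neighbours of members it ran from -0.242 to 0.240. Feature 7645 has no symbol, and its differences from control were -0.09, -0.04, 0.02 and 0.09 at 6 h, 2 d, 7 d and 21 d. The sources used here do not say whether the spots of these features adjoin on the array. The part of either neighbour in the values of MYOZ1 7646 was not tested.

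**Figure D2:**
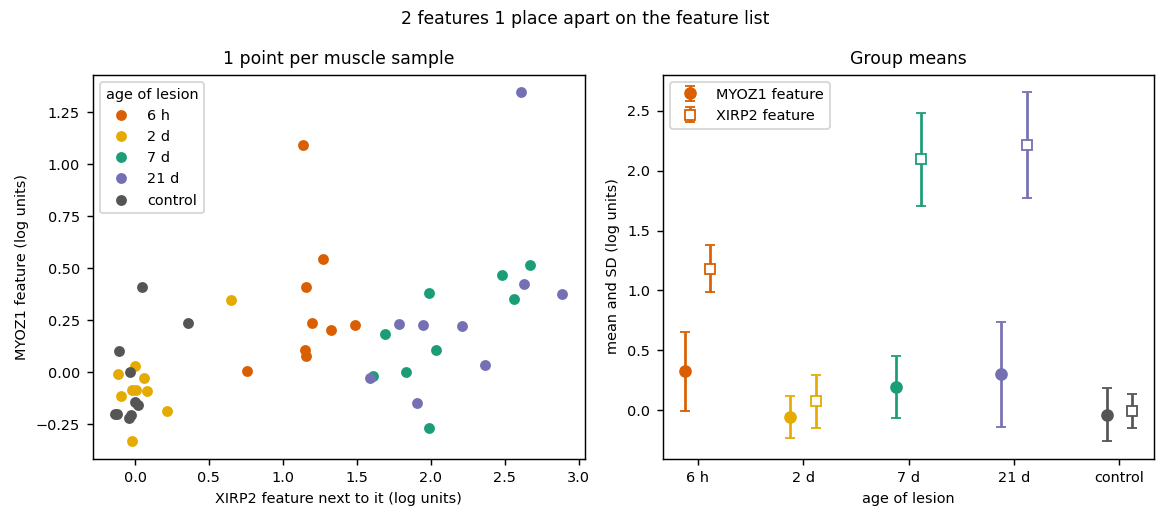
Level of MYOZ1 7646 (log units) against that of its list neighbour XIRP2 7647 in each muscle sample, with the group means and SD of both features (log units) by age of lesion and in controls. XIRP2 7647 averaged 1.18 at 6 h and 0.08 at 2 d, where MYOZ1 7646 averaged 0.32 and -0.06.

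MYOZ1 5345 lay below control at each age in this fit, with no age called. Its lowest, median and highest values were -0.03, 0.74 and 1.12 in 6 h lesions, 0.05, 1.02 and 1.38 in 2 d lesions, -0.27, 0.75 and 1.20 in 7 d lesions and 0.07, 0.98 and 1.45 in 21 d lesions, against 0.79, 1.08 and 2.29 in controls. The low end of each lesion group lay under every control, and the upper part overlapped them. The difference was -0.47 at 6 h (SE 0.204, limma adjusted p = 0.129), lower in 7 of 9 animals, and -0.50 at 7 d (SE 0.204, adjusted p = 0.0667), lower in 6 of 9. It was -0.34 at 2 d (adjusted p = 0.602) and -0.24 at 21 d (adjusted p = 0.471). The control of pig I held the highest value, 2.29, with the next control at 1.35, and without pig I the differences were -0.33 at 7 d and -0.07 at 21 d. Without pig J the 21 d difference was -0.12. With the array SD in the model the differences were -0.21 at 6 h, -0.16 at 2 d and -0.13 in 7 d lesions, and the direction turned at 21 d (0.12).

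MYOZ1 5345 and MYOZ1 7646, both listed under one gene, thus stood on opposite sides of control at 6 h, 7 d and 21 d in this fit, though not at 7 d and 21 d with the array SD in the model. In the same animal the first was lower and the second higher in 7 of 9 animals at 6 h, 4 of 10 at 2 d, 5 of 9 in 7 d lesions and 6 of 9 in 21 d lesions. MYOZ1 6530 averaged -0.40 ± 0.110 at 6 h, -0.40 ± 0.124 at 2 d, -0.31 ± 0.118 in 7 d lesions and -0.32 ± 0.130 in 21 d lesions, against -0.35 ± 0.0998 in controls (SD, n = 9, 10, 9, 9 and 10). Its differences ran from -0.05 to 0.04, and its limma adjusted p was at least 0.683 at each age.

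FHL1 7677 lay above control by at most 0.14 at the 4 ages, with none called. It averaged -0.17 ± 0.107 at 6 h, -0.26 ± 0.131 at 2 d, -0.18 ± 0.148 in 7 d lesions and -0.19 ± 0.107 in 21 d lesions, against -0.30 ± 0.182 in controls (SD, n = 9, 10, 9, 9 and 10). The differences were 0.14 at 6 h (SE 0.0677, limma adjusted p = 0.168), 0.05 at 2 d (adjusted p = 0.785), 0.11 at 7 d (adjusted p = 0.249) and 0.12 at 21 d (adjusted p = 0.234). It was higher than control in 6 of 9 animals at 6 h, 8 of 10 at 2 d, 6 of 9 in 7 d lesions and 7 of 9 in 21 d lesions.

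FHL3 7822 had group means between -0.48 and -0.39. Its differences from control were -0.04, -0.09, -0.02 and -0.06 at 6 h, 2 d, 7 d and 21 d, with limma adjusted p between 0.642 and 0.854. For both LIM-only proteins every lesion group overlapped the controls.

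SMPX was measured by a pair of features that differed in sign after quantile normalization. On the deposited values both lay below control at each age. SMPX 6351 averaged 0.21 ± 0.273 at 6 h, 0.13 ± 0.389 at 2 d, 0.02 ± 0.120 in 7 d lesions and 0.10 ± 0.328 in 21 d lesions, against 0.36 ± 0.469 in controls (SD, n = 9, 10, 9, 9 and 10). At 7 d its lowest, median and highest values were -0.21, 0.02 and 0.23, against -0.26, 0.23 and 1.39 in controls. The 7 d values thus lay inside the range of the controls, which reached far higher. The difference was -0.35 at 7 d (SE 0.145, limma adjusted p = 0.0754), lower in 6 of 9 animals, and it was -0.17, -0.23 and -0.28 at 6 h, 2 d and 21 d (adjusted p = 0.508, 0.609 and 0.212). Pig H held the highest control, and without pig H the differences were -0.01 at 6 h, -0.15 at 2 d, -0.23 in 7 d lesions and -0.16 in 21 d lesions.

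SMPX 5258 averaged 0.97 ± 0.347 at 6 h, 0.90 ± 0.214 at 2 d, 1.12 ± 0.215 in 7 d lesions and 1.02 ± 0.349 in 21 d lesions, against 0.90 ± 0.214 in controls (SD, n = 9, 10, 9, 9 and 10). Its difference at 7 d was 0.24 (SE 0.118, limma adjusted p = 0.144), higher in 6 of 9 animals. At the other ages it was between 0.01 and 0.12, with adjusted p of at least 0.564. SMPX 5258 was higher while SMPX 6351 was lower in 3 of 9 animals at 7 d, and both lay on the same side of control in the other 6.

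**Figure D3:**
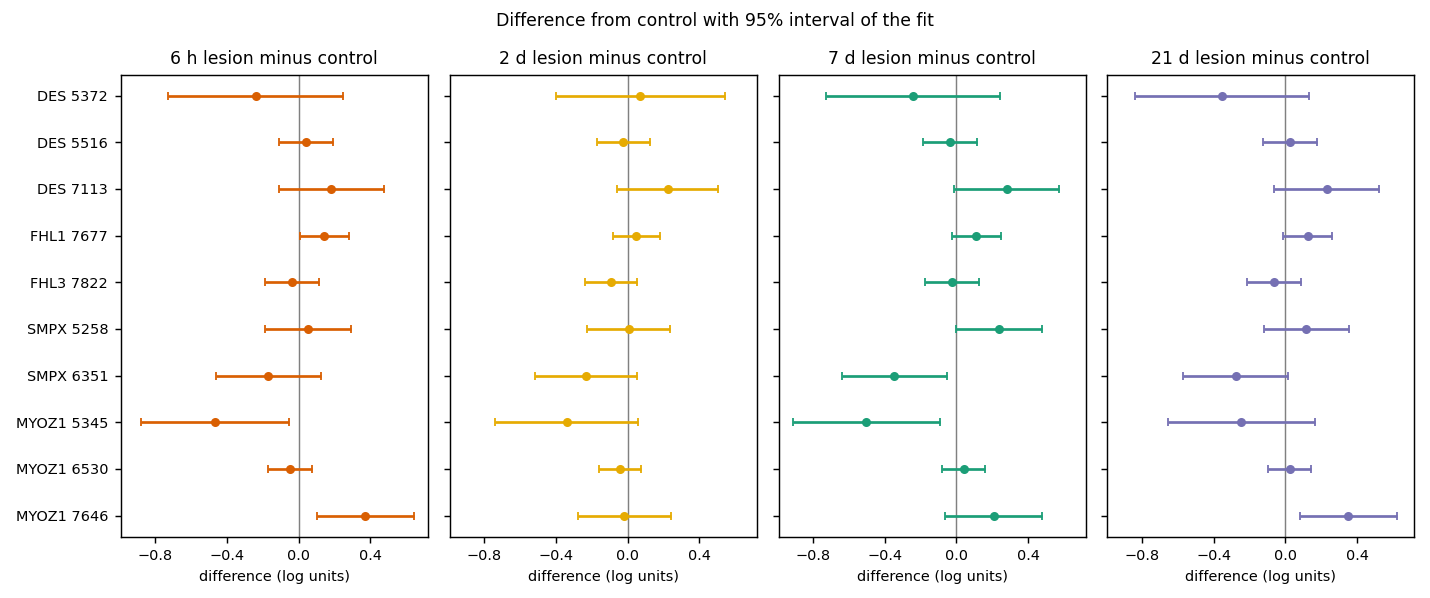
Difference from control (log units) of the 10 member features at each lesion age, with the 95% interval of the fit. The intervals held 0 for 7 of 10 features at 6 h, 10 at 2 d, 8 in 7 d lesions and 9 in 21 d lesions, and MYOZ1 features lay on both sides of control.

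Comparing lesions of different age gave no calls either. From one age to the next, limma called 0 of 10 members in 2 d against 6 h lesions (6.18% of all features), 0 in 7 d against 2 d lesions (16.5%) and 0 in 21 d against 7 d lesions (0.681%). In the other pairs of ages it called 0 in 7 d against 6 h (1.62% of all features), 0 in 21 d against 6 h (1.62%) and 0 in 21 d against 2 d (6.92%). At an unadjusted p below 0.05 there was 1 member in 2 d against 6 h lesions, 1 in 21 d against 2 d lesions and 0 in each of the other pairs. Both were MYOZ1 7646: 2 d lesions were 0.39 lower than 6 h lesions (limma adjusted p = 0.0761, lower in 8 of 9 animals), and 21 d lesions were 0.37 higher than 2 d lesions (adjusted p = 0.0983, higher in 6 of 9).

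With the 5 groups of each feature put in order by the differences of the fit, 40 pairs of groups were neighbours in that order. These pairs are among the comparisons already given, in which no member was called, so they add no further test. Their smallest limma adjusted p was 0.282. For DES 5372 the order was 21 d, 7 d, 6 h, control and 2 d, from low to high, with 6 h and 7 d only 0.004 apart. For MYOZ1 5345 it was 7 d, 6 h, 2 d, 21 d and control, and for MYOZ1 7646 it was 2 d, control, 7 d, 21 d and 6 h. The orders thus differed between features, and neighbours in them are by choice the groups closest in the fit. MYOZ1 5345 was higher at 21 d than at 7 d in 8 of 8 animals, by 0.26 in the fit (SE 0.210, adjusted p = 0.788).

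Features listed under one gene did not vary together. Over the 47 arrays, which share labelling and normalization, the 7 pairs of features of the same gene had a median r of -0.137, from -0.407 to 0.104. The 38 pairs of different member genes had a median r of 0.0292, from -0.620 to 0.635, and all pairs of features in the series had a median of -0.0132. The 2 features of SMPX and the 3 features each of DES and MYOZ1 therefore did not act as repeats of one measurement. Both features lay above the median level of the series only for SMPX 5258 with SMPX 6351 (r = -0.112) and MYOZ1 5345 with MYOZ1 7646 (-0.264). The other same-gene pairs all included DES 5516, DES 7113 or MYOZ1 6530, which lay below it. The part of low level in these r was not tested. Whether each symbol belongs to the spot it is listed for was not tested, and a value belongs to the feature and, through the list, to the gene.

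Among features with 1 symbol, the 2 of another gene most like each member were found by Pearson r over the 47 arrays. DES 5372 was most like TNNC2 (fast troponin C, r = 0.643) and RPS20 (0.571), DES 5516 like CFL1 (0.552) and TPM1 (0.535), and DES 7113 like BTG2 (0.791) and PRKAG1 (0.782). MYOZ1 5345 was most like RPL11 (0.736) and ENO3 (muscle enolase, 0.717), MYOZ1 6530 like DMD (0.462) and TNNC2 (0.414), and MYOZ1 7646 like CKM (muscle creatine kinase, 0.915) and APP (0.787). FHL1 was most like PFKM (0.469) and MYH2 (0.451), and FHL3 like MYLPF (0.537) and PYGM (0.447). SMPX 5258 was most like SLN (0.567) and RPS26 (0.517), and SMPX 6351 like MYOZ1 5345 (0.635) and TNNC2 (0.630). Each partner was 1 feature and does not stand for its whole gene. TNNC2 was feature 4616 for DES 5372, 6078 for MYOZ1 6530 and 5380 for SMPX 6351, and CKM was feature 7382. These are descriptions over arrays that include all 5 groups, each chosen as the highest of 203 to 205 features.

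The count of called members changed with the scaling of the arrays. On the deposited values without quantile normalization, limma called 3 of 10 members at 6 h, where 26.0% of all features were called, 5 at 7 d (39.0%) and 4 at 21 d (37.1%). At 6 h they were DES 5372 (-0.90, adjusted p = 0.0427), MYOZ1 5345 (-0.90, adjusted p = 0.0175) and MYOZ1 7646 (0.43, adjusted p = 0.00392). DES 5372 and MYOZ1 5345 were called lower at 7 d (-1.20 and -1.002) and at 21 d (-1.22 and -0.85) as well, and so was SMPX 6351 (-0.60 and -0.57). DES 7113 (0.35) and MYOZ1 6530 (0.25) were called higher at 7 d, and MYOZ1 7646 (0.26) at 21 d. The called differences of DES 5372 were thus between 3 and 5 times those after normalization. SMPX 5258 was called at no age on deposited values, and its differences changed sign at each age. On deposited values SMPX 5258 lay at -0.28, -0.33, -0.33 and -0.42 at 6 h, 2 d, 7 d and 21 d, where SMPX 6351 lay at -0.43, -0.53, -0.60 and -0.57.

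The members called lower on deposited values had control means above 0 on the deposited scale (2.72 for DES 5372, 1.62 for MYOZ1 5345 and 0.61 for SMPX 6351), and their levels moved with the SD of the array. Over 47 arrays the deposited level and the SD had r = 0.772 for DES 5372, 0.827 for MYOZ1 5345, 0.551 for SMPX 6351 and 0.793 for SMPX 5258. After normalization the values were 0.169, 0.470, 0.396 and -0.0288. The members called higher had control means below 0. Their r was -0.661 before and -0.582 after for DES 7113, -0.468 and -0.533 for MYOZ1 7646, and -0.424 and -0.0645 for MYOZ1 6530. The remaining members also had control means below 0. Their r was 0.0593 before and 0.372 after for DES 5516, -0.44 and -0.296 for FHL1 7677, and -0.397 and -0.0279 for FHL3 7822. The SD of the arrays was also lower in lesions than in controls. Its part in these differences was not tested apart from the fits with and without it.

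**Figure D4:**
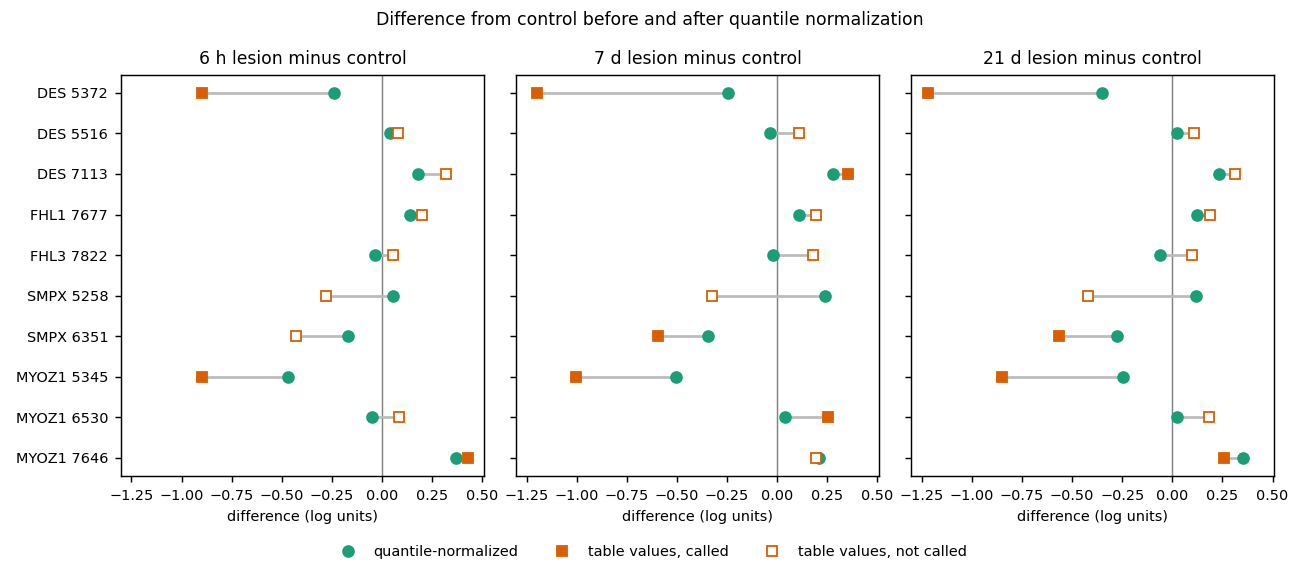
Difference from control (log units) of the 10 member features after quantile normalization and on the deposited values, at 6 h, 7 d and 21 d, with filled squares for features called on the deposited values. DES 5372 lay at -0.24 after normalization and at -1.20 on deposited values at 7 d, and 0 members were called after normalization at these ages.

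Of 59 other genes of the Z disc, costamere and intermediate filaments, 4 had a feature with values: ANKRD1, FLNA, DMD and XIRP2. XIRP2 was called higher than control at 6 h, 7 d and 21 d, and 2 d lesions were 1.13 lower than 6 h lesions (limma adjusted p = 3.65e-09). ANKRD1, a titin-binding ankyrin repeat protein, FLNA, the widely expressed filamin, and DMD, the dystrophin of the membrane, were called at 0 of the 4 ages, with differences from -0.10 to 0.10. The medians over the 4 genes were 0.01, 0.04, 0.08 and 0.06 at 6 h, 2 d, 7 d and 21 d.

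Markers of muscle fibres were measured in every group. Of 12 fibre markers 8 genes were measured by 51 features, of which 3 were called higher and 4 lower at 6 h, 0 and 0 at 2 d, 3 higher and 16 lower at 7 d, and 2 higher and 8 lower at 21 d. Of all 1908 features, 11.8% were called at 6 h (132 higher, 93 lower) and 0.734% at 2 d (14 and 0). At 7 d the share was 25.4% (205 and 279), and at 21 d it was 14.7% (124 and 157). The summed level of the 51 marker features ranged from 18.5 to 25.4 at 6 h and 19.1 to 25.2 at 2 d. It ranged from 15.6 to 20.9 at 7 d and 15.2 to 23.0 at 21 d, against 19.99 to 24.2 in controls. The part of these marker levels in the members' values was not tested. FN1 and PECAM1 were the measured markers of matrix and endothelium, at 1 feature each. Of the listed markers of white blood cells, fat, blood and regenerating fibres, 0 genes had a feature with values, so they could not be followed.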

How the data were processed

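RNA of 48 muscle samples from 10 piglets was measured on nylon cDNA arrays with a radioactive label, per the labels. The authors deposited values on a log scale whose base, centring and choice of features are not given in the sources used here. They ran from -1.33 to 5.00. Both columns of 41 of 42 samples with 2 columns were identical, and columns of a sample were averaged. Of 4608 features, 1908 had a value in every column. Symbols came from the platform's annotation, and all 19 member features matched the current gene table. No sequence or genome position is given.

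Values of 47 arrays were quantile-normalized and fitted with limma 3.58.1 in R 4.3.3 (group and animal terms), with two-sided p-values adjusted by Benjamini-Hochberg over 1908 features per comparison and a threshold of 0.05. Figures were drawn with matplotlib 3.10.9. Precision is limited by how many arrays there were. The animal was the block because every pig carried a control and lesions. Deviations from group means had a median r of -0.0236 within animals (88 pairs) and -0.0035 between them (795 pairs), so the pairing rests on the design. Each site is a separate piece of muscle. Named were all member features with values, called genes of the list of other Z disc genes, and for each member the 2 most correlated features of another gene. The members, lists and tests were chosen with earlier results of these data known. The 3 pairs of ages that are not consecutive were added after the data were seen. Alternatives were the deposited and the median-centred values, the array SD as a covariate, the array of pig F kept, no block, a trend along the list subtracted (running median over 101 features), the control of pig I and 6 h lesion of pig J left out, only the groups compared, features above the median level, and each animal left out.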

Additional observations from a re-analysis of the deposited data

Results flagged for a closer look

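Single samples stood far from the rest of their group in 10 of 50 groups of member values, by Dixon's test at 95%. Chance gives about 1 in 20 if values follow a normal distribution. The groups share arrays and are not independent. The share over all features was not computed, so the count does not show a trait of the members. DES 5372 was lowest in the 21 d lesion of pig J, at 0.27, with the next at 1.47. FHL1 7677 was highest in the control of pig D, at 0.12, with the next at -0.20. SMPX 5258 was lowest in the 6 h lesion of pig G (0.22, next 0.83) and highest in the 2 d lesion of pig D (1.42, next 0.98) and the 7 d lesion of pig H (1.57, next 1.24). SMPX 6351 was highest in the 2 d lesion of pig I (0.98, next 0.38) and the 21 d lesion of pig K (0.88, next 0.17). MYOZ1 5345 was highest in the control of pig I (2.29, next 1.35). MYOZ1 7646 was highest in the 6 h lesion of pig G (1.09, next 0.55) and the 21 d lesion of pig I (1.35, next 0.43). The samples came from 6 different animals.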

How the results depend on the processing

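No member difference that was called turned its sign, because none was called. Of the 100 pairwise member differences, 87 were called under none of 19 alternatives, and 1680 of 1850 repeated values kept their sign. Deposited values called 3 members at 6 h, 5 at 7 d, 4 at 21 d, 1 in 2 d against 6 h and 4 by the F test, and median-centred values called 3, 5, 4, 0 and 4. With the 6 h array of pig F kept, 1 member (MYOZ1 7646) was called at 6 h (0.44, limma adjusted p = 0.03) and 1 in 2 d against 6 h. The F test called 0 members with the array SD in the model, with the local trend subtracted (MYOZ1 7646, adjusted p = 0.0759), and without the control of pig I and the 6 h lesion of pig J (adjusted p = 0.110). Leaving out each animal gave 0 to 1 members at 6 h, 0 to 2 at 7 d, 0 to 1 at 21 d, 0 to 1 in 2 d against 6 h and 0 to 1 by the F test. MYOZ1 7646 was called at 6 h without pig D (0.45) or I (0.37), in 2 d against 6 h without pig I (-0.38) and at 21 d without pig C (0.41). SMPX 6351 was called at 7 d without pig C (-0.42) or D (-0.41), and MYOZ1 5345 without pig C (-0.60) or F (-0.58). Without the replicate block the F test called 1 member, MYOZ1 7646 (F = 3.81, adjusted p = 0.0407), and no member call changed. The fit of only the features above the median level held 5 of the members and called MYOZ1 7646 at 6 h (adjusted p = 0.0394) and 21 d (0.0480), and SMPX 6351 (0.0478) and MYOZ1 5345 (0.0371) at 7 d, with the differences unchanged and fewer features in the adjustment. The cause of these changes was not tested.

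Calls over all features moved too. Deposited and median-centred values called 496 and 518 features at 6 h (main 225), 28 and 57 at 2 d (14), 744 and 782 at 7 d (484), 708 and 742 at 21 d (281), 40 and 43 in 2 d against 6 h (118), and 127 and 177 in 7 d against 2 d (314). The split of higher against lower calls moved with them: 103 against 393 on deposited values and 132 against 93 after normalization at 6 h, 249 against 495 and 205 against 279 at 7 d, and 178 against 530 and 124 against 157 at 21 d. The array SD in the model left 265 at 7 d, 111 at 21 d and 258 by the F test (432). At 21 d the count was 177 with the array of pig F, 167 with the local trend subtracted, 178 with only the groups compared and 169 without pig I. Without the shared copied arrays it was 148 at 6 h. For 7 d against 2 d (314) it was 209 with only the groups compared. For 21 d against 7 d (13) it ran from 0 to 20 over the settings that moved it, for 7 d against 6 h (31) from 0 to 20, for 21 d against 6 h (31) from 12 to 52, and for 21 d against 2 d (132) it was 75 on deposited values and 44 with only the groups compared.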
